A study of Mus musculus with 2 samples.

Results

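The genes described here are 10 genes of AP-1 and the immediate early response, not all of them immediate early genes. They are the AP-1 subunit genes Fos, Fosb, Fosl1, Fosl2, Jun, Junb and Jund, the related stress factor Atf3, the zinc finger factor Egr1, and Ier3, which encodes an immediate early regulator of cell survival and is not itself a transcription factor. They were taken by their platform gene symbol, and 9 of the 10 have a row of their own, among 30059 genes named by such rows on the array. The row of Junb is shared with its neighbour Prdx2, a peroxiredoxin gene, so its value is given but belongs to no single gene. The samples were corneal epithelium of C57BL/6 mice of both sexes, 8 weeks old and anaesthetised with ketamine and xylazine. In the injured eye the epithelium was scraped off at full thickness up to the border of cornea and limbus with a 0.5 mm rust ring remover. Healing ran for about 48 hours, until 10% of the wound remained uncovered, before both epithelia were taken, and the uninjured group is the fellow eye of wounded animals, not an eye of an unwounded mouse. Each group is represented by 1 array, and how many mice were pooled for it, if any, is not stated by the labels.

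AP-1 is a family of dimers. FOS proteins need a JUN protein as partner, whereas JUN proteins also pair with each other, and the dimers bind a short palindromic element in promoters and enhancers. Fos, Fosb, Jun, Egr1 and Atf3 are textbook immediate early genes, switched on briefly by growth factors, wounding and stress through MAP kinases and serum response factor, while Fosl1 and Fosl2 (the FRA proteins) lack the strong activation domain of FOS and usually follow later and last longer. In stratified epithelia AP-1 is known for its part in keratinocyte migration, proliferation and the expression of differentiation genes.

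Promoter sequences of the 4 AP-1 genes that frame the results are shown first: Fos and Fosl2, which were lower in the injured array, Atf3, which was 1.58-fold apart in the other direction and short of the 2-fold used for a call, and Jun, which was nearly level. Each is the 250 bases before the annotated start, from RefSeq on GRCm38.p6, 5′ to 3′ on the gene's own strand. Capitals mark the letters TGACGT (the core of a cAMP response element), TGACATCA (a variant AP-1 element) and TATAAA, on either strand.
Fos: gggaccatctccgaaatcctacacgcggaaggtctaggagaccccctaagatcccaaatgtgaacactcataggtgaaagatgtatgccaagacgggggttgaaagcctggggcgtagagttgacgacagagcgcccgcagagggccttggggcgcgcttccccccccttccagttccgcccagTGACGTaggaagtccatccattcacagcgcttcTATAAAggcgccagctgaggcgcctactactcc
Fosl2: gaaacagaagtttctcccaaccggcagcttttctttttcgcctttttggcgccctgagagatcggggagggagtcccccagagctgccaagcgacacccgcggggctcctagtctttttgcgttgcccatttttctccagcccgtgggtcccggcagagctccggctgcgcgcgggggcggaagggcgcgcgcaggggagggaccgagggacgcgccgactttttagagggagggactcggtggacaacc
Jun: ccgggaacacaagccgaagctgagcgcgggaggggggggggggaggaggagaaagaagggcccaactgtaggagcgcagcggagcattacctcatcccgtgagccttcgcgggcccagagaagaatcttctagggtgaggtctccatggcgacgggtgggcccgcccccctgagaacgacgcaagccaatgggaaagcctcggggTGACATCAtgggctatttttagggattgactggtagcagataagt
Atf3: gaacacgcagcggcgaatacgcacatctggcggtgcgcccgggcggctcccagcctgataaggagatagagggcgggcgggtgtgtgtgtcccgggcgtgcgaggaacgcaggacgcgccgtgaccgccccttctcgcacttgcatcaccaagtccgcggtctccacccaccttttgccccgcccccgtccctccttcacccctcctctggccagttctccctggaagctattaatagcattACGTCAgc
The windows lie at chr12:85473640-85473889, plus strand for Fos, chr5:32136222-32136471, plus strand for Fosl2, chr4:95052223-95052472, minus strand for Jun and chr1:191183334-191183583, minus strand for Atf3. Fos holds TGACGT at 66 to 61 bases and TATAAA at 33 to 28 bases before the start, Atf3 holds TGACGT on the opposite strand at 8 to 3 bases, and Jun holds TGACATCA at 45 to 38 bases. The Fosl2 window held none of the motifs searched. Of the 32851 promoters in the RefSeq table, 6.47% hold TGACGT, 2.93% TGACATCA and 12.4% TATAAA in the same window. Among 12069 promoters, 1 for each measured gene, these shares were 9.08%, 1.59% and 7.69%. The consensus AP-1 element TGACTCA (4.46% of all promoters), the full cAMP response element TGACGTCA, which contains TGACGT (1.55%), the EGR1 element GCGTGGGCG (0.536%) and the CArG box bound by serum response factor (1.47%) were not in the window of any of the 8 of 10 genes with an entry. That says only that these letters do not occur in these 250 bases. Fosl1, the gene that was at least 2-fold higher, and Egr1 have no entry, so the searches do not cover them. Among the 12069 promoters of measured genes the same elements were in 3.49%, 2.44%, 0.961% and 1.18%, in the order given.

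The deposited values are log2 intensities. A gene counted as measured when its brighter value reached the table's overall median of 5.44, which left 19136 genes, and it counted as higher or lower when the arrays differed by 1 or more on the log2 scale, which is 2-fold. A single array per group gives no spread between samples, hence no test, and every difference below is without a replicate check. Both arrays had the markers of corneal epithelium: Krt12, the cornea-specific keratin, was at 14.07 uninjured and 10.85 injured, Pax6 at 10.63 and 9.31, Aldh3a1 at 13.66 and 10.98, Krt5 at 13.85 and 13.69, Krt14 at 11.16 and 13.38, Cdh1 at 11.46 and 11.82, and Trp63 at 9.83 and 9.47. Tkt shares its row with a microRNA (12.04 and 10.28). Of the 7 of these 8 markers with a row of their own, Krt12, Pax6 and Aldh3a1 were lower and Krt14 higher by 2-fold or more.

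The FOS genes went apart. Fos and Fosl2 were lower in the healing epithelium and Fosl1 was higher, so that 2 of the 9 measured genes were at least 2-fold lower and 1 was higher by that much. Across all measured genes 3.93% were at least 2-fold lower, 4.2% at least 2-fold higher and 8.13% either. Among the 11870 brighter genes, whose brighter value was at or above the 75th percentile of 6.93 as it was for all 9, 5.78% were lower, 6.22% higher and 12% either. The 10 genes were chosen with earlier results of these arrays known, so their share is a description.

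Fos, the founding FOS gene, read 9.75 in the uninjured and 7.75 in the injured array. That is a log2 difference of -2.00, or 3.99-fold, and 151 of the 19136 measured genes had a lower difference. Fosl2, which encodes FRA2, read 10.23 uninjured and 8.74 injured. Its difference was -1.49 (2.81-fold lower), and 317 genes had a lower one. Fosl1, which encodes FRA1, read 6.66 uninjured and 7.75 injured, a difference of 1.09 (2.13-fold higher), and 96.6% of measured genes had a lower difference. Fosb, a close relative of Fos, stayed nearly level at 7.84 uninjured and 7.97 injured (0.12).

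**Figure D1:**
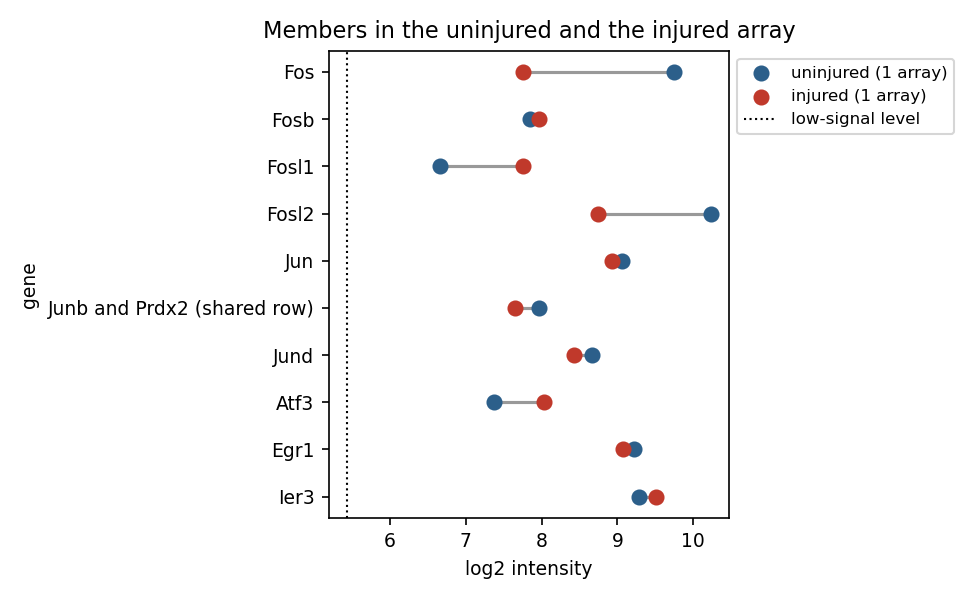
Log2 intensity (x axis) of each of the 10 genes (y axis) in the uninjured array (blue) and the injured array (red), 1 array each, with a grey line joining both values and a dotted line at the low-signal level of 5.44. Fos and Fosl2 lie far to the left in the injured array, Fosl1 and Atf3 lie to the right, and the other genes nearly coincide.

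The JUN genes differed little. Jun, the strongest activator of the family, read 9.06 uninjured and 8.93 injured (-0.13). Jund, the subunit that is broadly present in resting cells, read 8.66 uninjured and 8.43 injured (-0.24). The row shared by Junb and Prdx2 read 7.97 uninjured and 7.65 injured (-0.31). A separate row of Prdx2 alone read 7.94 uninjured and 7.98 injured, and how much of the shared row belongs to Junb cannot be told from these values. None of these rows reached 2-fold, and the values of both arrays lay within 1.24-fold of each other in all of them.

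Among the stress and growth response genes, Atf3, a CREB and ATF family factor induced by many stresses, was the most apart. It read 7.37 uninjured and 8.03 injured, a difference of 0.66 (1.58-fold higher), which passes a threshold of 1.5-fold but not the 2-fold used here. Egr1, a zinc finger factor induced by growth factors, read 9.21 uninjured and 9.08 injured (-0.14). Ier3 read 9.28 uninjured and 9.51 injured (0.23). The injured and uninjured values of Egr1 and Ier3 were thus nearly level.

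A yardstick within these arrays is the disagreement between rows of 1 gene, whose log2 differences had an SD of 0.245 over 528 rows of 249 genes. Jund, Egr1, Jun, Fosb and Ier3 differed by less than 1 such SD and the Junb and Prdx2 row by 1.27. Atf3 differed by 2.69, Fosl1 by 4.46, Fosl2 by 6.09 and Fos by 8.15 such SDs. This SD holds no variation between animals or eyes. Differences at least as large in size as that of Fos occurred in 1.54% of all measured genes, as that of Fosl2 in 3.3%, as that of Fosl1 in 6.74% and as that of Atf3 in 17.1%.

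**Figure D2:**
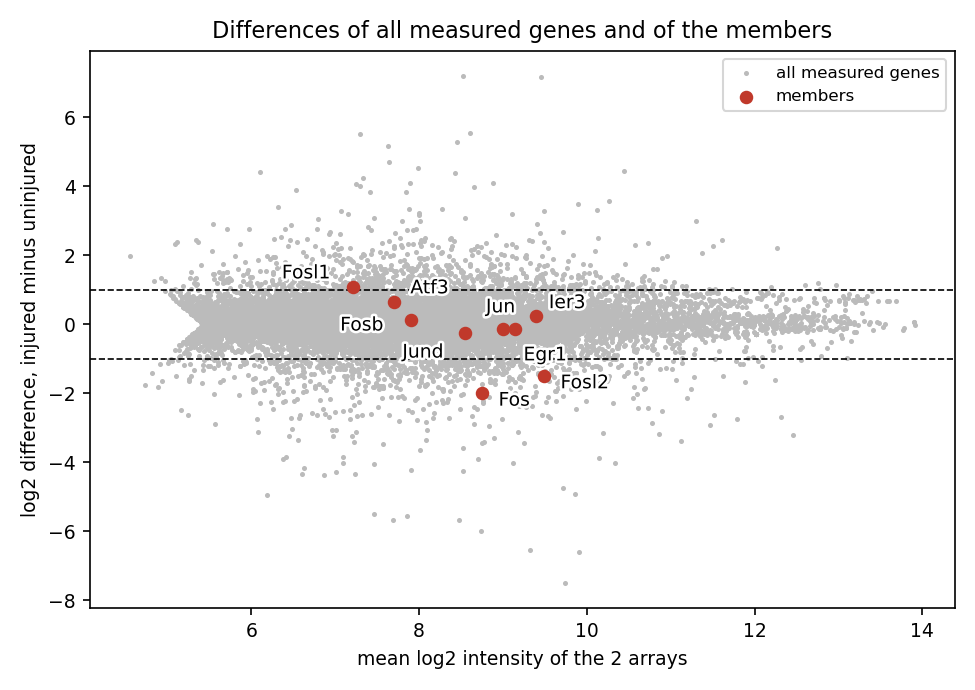
Log2 difference, injured minus uninjured (y axis), against the mean log2 intensity of both arrays (x axis) for all 19136 measured genes (grey) and the 9 genes with a row of their own (red), with dashed lines at 2-fold. Fos and Fosl2 lie below the lower line, Fosl1 just above the upper line, and the other 6 between the lines.

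Because each array carries all subunits, a ratio between 2 genes is unchanged when all log2 values of an array shift by the same amount. Scaling that varies with intensity can still alter such a ratio, and the ratio shows only unequal change. The ratio of Fosl1 to Fos was 8.50-fold larger in the injured array than in the uninjured one (3.09 on the log2 scale), and the ratio of Fosl1 to Fosl2 was 5.99-fold larger (2.58). The ratio of Atf3 to Fos was 6.29-fold larger, and that of Jun to Fos 3.63-fold larger, the latter almost wholly through the lower value of Fos. The FOS genes shifted against each other, while Jun and Jund differed by 0.13 and 0.24 in size. Bulk RNA cannot tell fewer cells of a type from less RNA per cell.

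Other bZIP factors, which pair with AP-1 subunits or compete for their sites, were mostly level, with 17 of 21 measured, a median of 0.01 and 15 less than 2-fold apart, beside a median of 0.06 over all measured genes. Array-wide, 8.13% of measured genes were at least 2-fold apart. Maf, a large MAF factor, was 6.86-fold higher (5.40 uninjured, 8.17 injured), with the uninjured value just under the low-signal level, so the size is uncertain. Jdp2, a JUN dimerisation partner that represses AP-1, was 2.26-fold lower (9.70 uninjured, 8.53 injured). The remaining 15 lay between -0.40 and 0.39, among them the BATF genes and Nfe2l2, and 2 members of the list, Atf7 and Creb5, share rows with other genes.

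Immediate early genes outside the 10 were split in both directions. Over all measured genes the median was 0.06, with 4.2% at least 2-fold higher and 3.93% lower (6.22% and 5.78% among the brighter genes). Of 14 measured transcription factors of 15 (median -0.10), Klf10, a TGF-beta inducible factor, was higher by 1.47 and the growth regulator Myc by 1.04, whereas the orphan nuclear receptor Nr4a2 (-1.42) and the epithelial differentiation factor Klf4 (-1.27) were lower. Egr2, Egr3 and Egr4, relatives of Egr1 named after their values were seen, differed by 0.01, -0.07 and -0.03. Of 30 measured other immediate early genes of 32 (median 0.05), 5 were at least 2-fold higher: Ptgs2, a prostaglandin synthase (4.71, with an uninjured value of 5.29 under the low-signal level), the chemokines Cxcl2 (1.45) and Cxcl1 (1.39), the kinase Plk3 (1.38) and the matricellular gene Ccn2 (1.01, and 0.99 with the array medians made equal). The 3 lower were the small GTPase Rhob (-1.77), the kinase Pim1 (-1.23) and the matricellular gene Ccn1 (-1.12).

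Upstream of AP-1, 3 of 15 measured genes of the MAP kinase cascade were lower by 2-fold or more, 0 were higher, and the median was -0.07, beside 3.93% lower and 4.2% higher over all measured genes (5.78% and 6.22% among the brighter genes). These were Braf, a RAF kinase (9.59 uninjured, 8.38 injured, -1.21), and Map3k1 (-1.17) and Map3k5 (-1.11), which feed JNK and p38. The terminal kinases measured, Mapk8, Mapk9 and the p38 genes Mapk11 to Mapk14, lay between -0.23 and 0.33. Serum response factor, its ternary complex partners, the MRTF coactivators and the NAB corepressors of EGR1 were all measured (8 of 8), 0 passed 2-fold in either direction, and the median was 0.23. Elk3 (0.81) and Srf (0.80), named after their values were seen, passed 1.5-fold. Regulators of the decay of AP-1 mRNA and protein were also all measured (9 of 9) with 0 past 2-fold and a median of -0.22. Here Cop1, a ubiquitin ligase that targets JUN (-0.75), and Zfp36, which binds AU-rich elements in short-lived mRNAs (-0.74), likewise named after their values were seen, were lower by more than 1.5-fold.

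Many textbook target genes of AP-1 were higher. Of 19 measured targets of 25, 10 were higher by 2-fold or more, 0 were lower, and the median was 1.02 beside 0.06 over all measured genes. Array-wide, 4.2% of measured genes were that much higher and 3.93% lower (6.22% and 5.78% among the brighter genes). The highest targets were Sprr1b (5.30) and Sprr1a (2.99), small proline-rich proteins of the cornified envelope, and Tnc (4.53), a matrix glycoprotein of healing tissue. The other 7 lay between 1.02 and 1.97: Plaur, Timp1, Plau, Hmga2, Vegfa, Mmp10 and Itga5. Itga5 (0.91) and Mmp10 (just under 2-fold) lost the call when a constant was added to the linear values, and Itga5 (0.99) also with a loess curve. Sprr1a and Sprr1b have close relatives in their family, so the share of signal that each holds is uncertain, and the uninjured value of Mmp10 (5.07) lay under the low-signal level. Among the stress response genes known to accompany Atf3, 1 of 10 was at least 2-fold higher, the asparagine synthetase Asns (2.10), 0 were lower, and the median was 0.19. These lists were drawn up with earlier results of these arrays known.

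**Figure D3:**
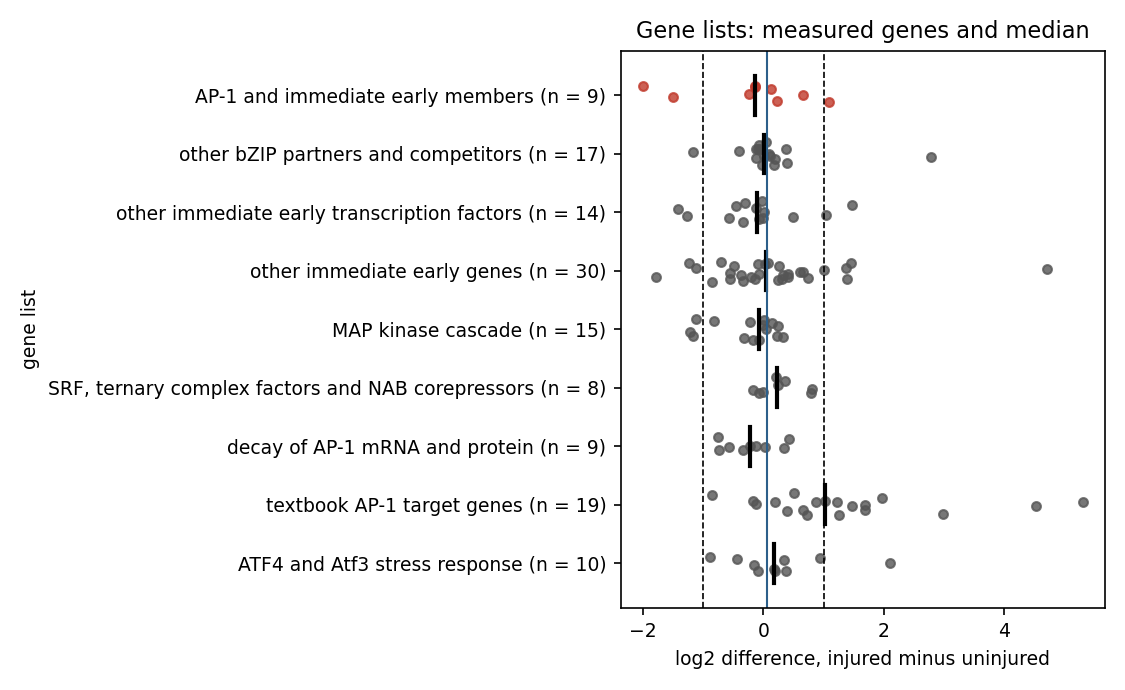
Log2 difference, injured minus uninjured (x axis), of each measured gene in 9 gene lists (y axis, with the number measured), with a black bar at each list median, a blue line at the median of all measured genes (0.06) and dashed lines at 2-fold. The target genes have a median of 1.02, and the medians of the other lists lie between -0.22 and 0.23.

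To show the element through which AP-1 is known to act, the 250 bases before the start are given for 3 of the higher targets, Plaur (the urokinase receptor), Sprr1a and Mmp10 (stromelysin 2), chosen because each holds TGACTCA on either strand. Capitals mark TGACTCA or its reverse complement TGAGTCA, and also TGACATCA and TATAAA.
Plaur: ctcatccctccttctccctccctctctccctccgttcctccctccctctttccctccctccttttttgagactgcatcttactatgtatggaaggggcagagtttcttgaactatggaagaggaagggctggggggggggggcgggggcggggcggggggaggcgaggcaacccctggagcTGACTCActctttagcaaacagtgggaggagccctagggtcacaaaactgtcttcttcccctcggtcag
Sprr1a: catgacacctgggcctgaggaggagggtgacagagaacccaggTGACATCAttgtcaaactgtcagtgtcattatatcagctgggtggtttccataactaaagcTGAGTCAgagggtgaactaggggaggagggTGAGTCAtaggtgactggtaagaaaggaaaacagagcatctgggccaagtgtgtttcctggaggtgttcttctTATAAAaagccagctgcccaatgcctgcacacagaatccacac
Mmp10: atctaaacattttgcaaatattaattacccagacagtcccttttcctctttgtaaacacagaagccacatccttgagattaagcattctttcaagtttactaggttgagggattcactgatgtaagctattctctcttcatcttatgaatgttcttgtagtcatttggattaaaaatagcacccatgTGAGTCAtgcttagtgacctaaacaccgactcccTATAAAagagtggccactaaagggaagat
These windows lie at chr7:24462233-24462482, plus strand for Plaur, chr3:92485882-92486131, minus strand for Sprr1a and chr9:7502092-7502341, plus strand for Mmp10, again from RefSeq on GRCm38.p6. Plaur holds the element at 69 to 63 bases before the start, Mmp10 at 63 to 57, and Sprr1a at 146 to 140 and at 116 to 110. Plaur read 6.66 uninjured and 8.64 injured, Sprr1a 9.81 and 12.80, and Mmp10 5.07 and 6.30. In all, 10 of the 21 targets with a promoter in the table hold the element. Of the 7 measured among those, 3 were at least 2-fold higher (median 0.72), and of the 10 measured without it in this window 6 were (median 1.14), so the share of measured targets that were higher was not larger with these letters in the window. The unmeasured targets with the element, Mmp1a (4.24 uninjured, 4.48 injured), Mmp1b (3.69, 3.85) and Mmp3 (4.83, 4.67), were under the low-signal level in both arrays. Mmp10 and Mmp13 (4.94, 5.44) reached that level only in the injured array, Mmp13 barely. Mmp1a, Mmp1b, Mmp3 and Mmp13 were named after their values were seen. Across the array the element was in 22 of 539 promoters of genes at least 2-fold higher (4.08%), in 26 of 554 of genes at least 2-fold lower (4.69%) and in 373 of 10976 of the rest (3.4%).

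The genes next to the 10 along the chromosome were read in the same way. Taking 3 protein-coding genes on each side of all 10 genes, 50 neighbours were measured, of which 3 were higher and 2 lower by 2-fold or more, beside 4.2% and 3.93% of all measured genes, a choice of comparison made after the values of the 10 genes were seen. These counts are near the array-wide shares. The 2 that were lower were Jdp2 (-1.17), which lies beside Fos, and Babam2 (9.71 uninjured, 8.66 injured, -1.06), a gene of the BRCA1-A complex, which lies beside Fosl2. Batf, the next gene past Jdp2, differed by -0.07. The 6 genes around Fosl1 differed by -0.16 to 0.18, while Fosl1 itself differed by 1.09. The 3 neighbours that were higher were the DNA repair gene Ercc1 (1.16) beside Fosb, the kinetochore gene Nsl1 (1.06, and 0.96 with the constant added) near Atf3 and the mitochondrial chaperone Hspa9 (1.12) near Egr1. Whether the array's probes keep the strands apart is not stated by the labels, so transcripts that overlap on opposite strands may not be separated.

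**Figure D4:**
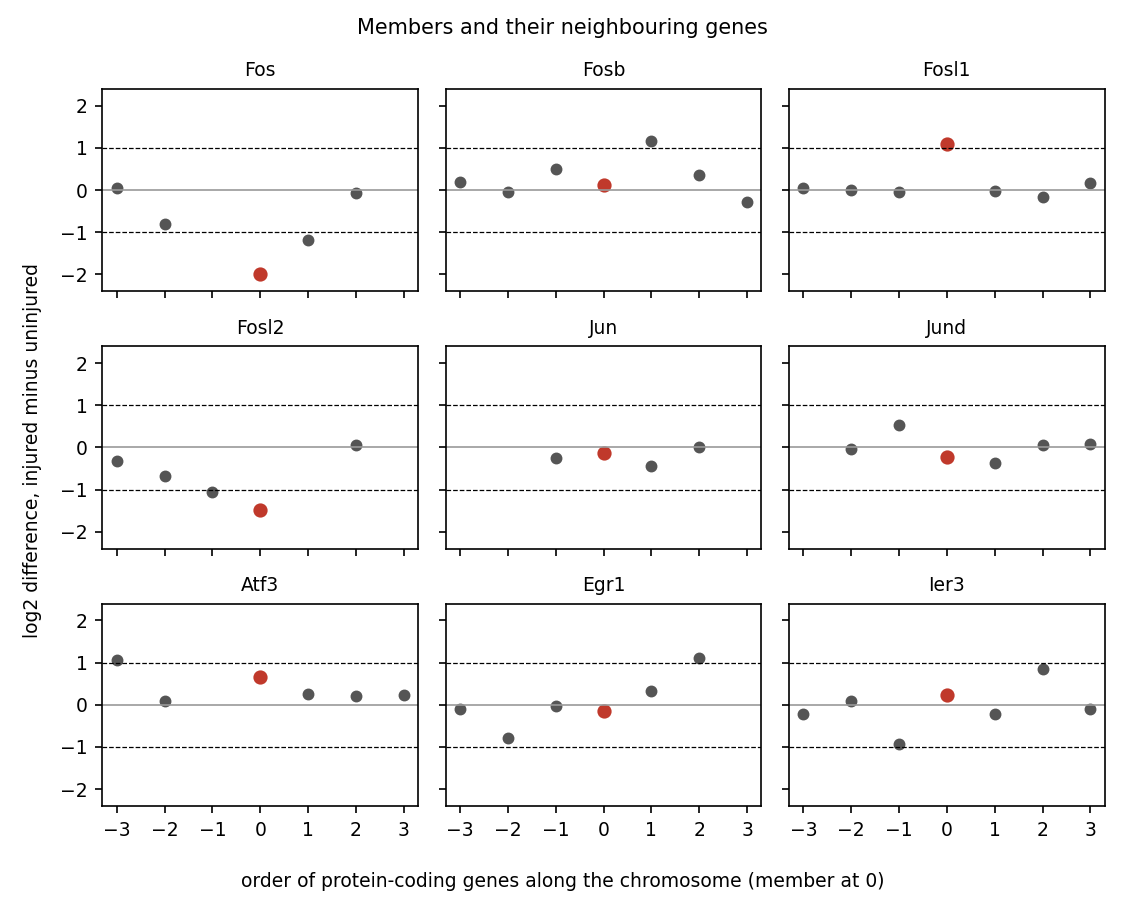
Log2 difference, injured minus uninjured (y axis), of each gene with a row of its own (red, at position 0) and of its measured protein-coding neighbours (grey, up to 3 on each side, x axis in gene order), with dashed lines at 2-fold. Jdp2 beside Fos and Babam2 beside Fosl2 lie below the lower line, and the neighbours of Fosl1 lie near 0. Ercc1 beside Fosb, Nsl1 near Atf3 and Hspa9 near Egr1 lie above the upper line.

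Immediate early genes are also expressed by leukocytes and stromal cells, so markers of other cell types were read beside them. The array-wide shares to set these counts against are 4.2% at least 2-fold higher and 3.93% lower. Of 9 neutrophil markers 7 were measured, 2 of them at least 2-fold higher, and the log2 of their summed level was 9.09 uninjured and 11.43 injured, mostly Ltf. The 2 were Ltf (7.84 and 11.13) and S100a9 (5.77 and 7.67, a difference of 1.89), both of which epithelial cells can also express. S100a8 read higher too but stayed under the low-signal level (3.77 and 5.32), whereas Ly6g, the defining marker, read 5.44 and 5.58. Of 9 macrophage markers 7 were measured, with a median difference of 0.20. Of the 7, 5 were above 0, as were 11163 of the 19136 measured genes. The 5 were Lyz2 (0.87), C1qb (0.57), Tyrobp (0.21), Cd68 (0.20) and Csf1r (0.18), while C1qa (-0.03) lay below 0, all named after their values were seen. The 1 past 2-fold was Itgam (10.26 and 8.72, -1.55), with which the summed level was 11.02 uninjured and 10.48 injured, and Adgre1 (4.50 and 4.58) and Ptprc (4.29 and 4.39) were under the low-signal level in both arrays. Of 6 keratocyte markers 4 were measured, 1 at least 2-fold lower, Dcn (6.09 and 4.77, -1.31), with Kera at 3.55 and 3.52 and a summed level of 8.80 and 8.62. All 5 conjunctival markers were measured (summed level 13.32 and 13.60). Krt7 (9.22 and 10.56, 1.34) and Krt19 (10.58 and 11.68, 1.11) were at least 2-fold higher and the goblet cell mucin Muc5ac (7.07 and 5.81, -1.26) lower, while the keratins Krt13 (12.06 and 11.77) and Krt4 (11.85 and 11.98) were bright in both arrays. Of lymphocyte markers 2 of 6 and of melanocyte markers 3 of 4 were measured, 0 of them past 2-fold, with summed levels of 7.14 and 7.28, and of 7.56 and 7.52. The part of any of these cells in the values of the AP-1 genes was not tested.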

How the data were processed

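Total RNA (2 µg) from 1 injured and 1 uninjured sample of mouse corneal epithelium was amplified, labelled with biotin and hybridised, per the labels' protocols. The authors deposited 1 table of log2 intensities with 65952 rows. Agilent Feature Extraction 9.1 is named in the submitters' processing notes, although the rows are numbered like transcript clusters. How background, probe summary and array scaling were handled is not stated there. The medians of both arrays (5.44 injured, 5.43 uninjured) and 75th percentiles (6.93 in both) differed by less than 0.1, so the log2 values were kept as deposited.

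Rows were named from the platform annotation with symbols updated through RefSeq gene identifiers (GRCm38.p6): 30600 rows have 1 gene, 2146 have several and give no name, and 33206 have none here. The brightest kept row by mean stood for a gene, of which 19136 were measured. Calls used a 2-fold difference, with no test and no p-value. The number of arrays limits the precision. The named genes were all 10 genes, up to 3 highest and 3 lowest in each list past 2-fold, genes completing counts of 5 or fewer, and defining markers. The genes and lists were chosen with earlier results of these data known, and the motifs TGACGT and TGACATCA after the promoters were seen. No gene is named for a pattern like a member's, since 2 arrays hold 1 difference. Scripts ran in Python 3.11.15 with pandas 2.3.3, NumPy 2.4.6 and statsmodels 0.14.6. Alternatives are given in the closing section.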

Additional observations from a re-analysis of the deposited data

How the results depend on the processing

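No paired analysis was possible because each group has 1 array, and for the same reason no replicate could be left out. Under scaling by quantiles, by the median, by the 75th percentile or by a loess curve (span 0.3), no low-signal filter, a filter at the 75th percentile, other choices of row and a constant of 11.8 added before log2, the 9 genes kept their sign and moved by less than 0.245. Over these 9 settings Fos ranged from -2.01 to -1.94, Fosl2 from -1.52 to -1.47, Fosl1 from 1.01 to 1.09 and Atf3 from 0.62 to 0.67, so Fosl1 stayed just past 2-fold and Atf3 short of it. The filters and the choices of row could not move these values, since each of the 9 genes has a single row that passes both filters. Only the scalings and the added constant could. Of the list genes, Ccn2 was under 2-fold with equal medians, the loess curve (0.99) and the constant (0.94), so its list of other immediate early genes had 7 in place of 8 genes past 2-fold. The target list had 9 in place of 10 with the loess curve and with the filter at the 75th percentile, which left out Mmp10, and 8 with the constant. Its median, 1.02 as reported, ran from 0.80 with no low-signal filter to 1.14 with the filter at the 75th percentile, and was 0.91 with the constant. The thresholds moved counts by their construction. At 1.5-fold 2 of the 9 genes were higher, Fosl1 and Atf3, and 2 lower, against 2159 higher and 1689 lower genes in all, where 2-fold gave 804 and 752. At 4-fold 0 of the 9 were higher and 0 lower, with 138 higher and 151 lower in all. Detection and saturation calls were not used here, so dim and very bright readings carry no such mark.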

Other observations

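The table holds 813 rows (1.23%) with exactly the same value in both arrays, and 151 of the 19136 measured genes (0.789%) are among them. None of the 10 genes is, but Hook1, near Jun, and Rtbdn, near Junb, are, at 8.73 and 6.26. These differences of 0 count as less than 2-fold apart here.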
